A study of Mus musculus with 6 samples.

Results

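The genes described here are 10 markers of the unfolded protein response of the endoplasmic reticulum (ER): Hspa5, Hsp90b1, Dnajb9, Dnajc3, Sdf2l1, Pdia4, Herpud1, Xbp1, Creld2 and Edem1. They were taken as a list of symbols, and each was read from the probe set that names that gene alone, the brightest where there were several. On that rule 9 of the 10 had a value, among 18820 genes in all, and all 9 lay above the filter on low values that left 11292 genes for testing. Pdia4 shares its probe set with another gene and is not analysed here. Dnajc3 had 2 probe sets with identical values, which were used once.

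The cells were C2C12, an immortalized mouse myoblast line, on day 7 of differentiation in medium with 2% horse serum. The silenced group (3 arrays) had received a locked nucleic acid oligonucleotide that inhibits miR-382-5p, and the control group (3 arrays) received Negative Control A. Transfection was on day 6 with a lipid reagent at a final oligonucleotide concentration of 50 nM, and RNA was taken 24 h later. Each group holds replicates numbered 1 to 3, and no label says whether these were separate cultures, so p-values measure a spread that may be partly technical. All values are log2 expression levels, and a level of a gene can be compared between arrays but not with the level of another gene. In a culture, fewer cells of a kind and less RNA per cell cannot be told apart.

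The inhibitor was directed at this microRNA, which is shown with its seed, bases 2 to 8 counted from the 5′ end, in capitals (RefSeq, GRCm38.p6, chr12:109733781-109733802, plus strand). The arrays do not show whether its mature form was lost.
mmu-miR-382-5p: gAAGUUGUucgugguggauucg

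The unfolded protein response matches the folding capacity of the ER to the load of newly made secretory and membrane proteins. Its sensors in the ER membrane are IRE1 (Ern1), which splices Xbp1 mRNA into the form that encodes an active transcription factor, ATF6 (Atf6), which is cut in the Golgi to release another, and PERK (Eif2ak3), which phosphorylates the initiation factor eIF2 alpha and so favours translation of ATF4. XBP1 and ATF6 raise the genes of ER chaperones and of ER-associated degradation, while ATF4 raises genes of amino acid supply and is shared with stresses that arise outside the ER, mitochondrial ones among them. In muscle the response is known to be active during myoblast differentiation.

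ATF6 and XBP1 act through short promoter elements. They are shown because members differ in whether the promoter window searched holds a match to an ER stress element. The Herpud1 window also holds a different set of matches from the rest. The windows searched were RefSeq promoters of 300 bases (GRCm38.p6, from 250 before to 50 after the gene start), and all 9 members had a window. The ER stress response element, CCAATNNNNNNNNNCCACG on either strand, was found in 4 of the 9 members and in 37 of 27025 genes overall (0.137%), among them 4 of the 15 other ER chaperone genes below that had a window (Calr, Canx, Ero1b and Pdia6). Its fixed letters are printed in capitals, with 5 flanking bases on each side, each on the strand on which the element reads as spelled.
Hspa5, chr2:34772020-34772048, plus strand, centred 56 bases before the gene start: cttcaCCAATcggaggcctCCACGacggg
Hsp90b1, chr10:86705633-86705661, minus strand, 202 bases before: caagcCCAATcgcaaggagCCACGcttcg
Hsp90b1, chr10:86705528-86705556, plus strand, 98 bases before: actcaCCAATcgtgcctcaCCACGcactc
Dnajc3, chr14:118937822-118937850, plus strand, 96 bases before: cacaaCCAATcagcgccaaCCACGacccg
Creld2, chr15:88819515-88819543, minus strand, 116 bases before: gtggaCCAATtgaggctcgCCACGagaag

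The second form of the element, ATTGGNCCACG on either strand, holds the same CCAAT letters turned round. It was found in 1 member, Herpud1, and in 12 of 27025 genes (0.0444%). The element TGACGTGG, bound by XBP1 and ATF6, occurred in 0 of the 9 windows and in 193 genes overall (0.714%), and it contains the CCACG letters on its other strand. The ATF4 composite element, searched as TGATGNAA on either strand after the values below had been seen, was found in 1 member, again Herpud1. That element occurred in 1219 of 27025 genes (4.51%) and in 1 of the 15 other ER chaperone genes with a window (Txndc5). In the ATF4 list below it was found in 8 of the 22 genes that had a window (Asns, Atf3, Chac1, Fgf21, Nupr1, Slc7a11, Trib3 and Vldlr). A match is a string of letters and does not show that a factor binds there. Only these spellings within the windows were searched, so a missing match does not show that a gene lacks the element. These are the matches in the Herpud1 window, and they do not overlap each other.
Herpud1, ER stress element of the second form, chr8:94386372-94386392, plus strand, 46 bases before the gene start: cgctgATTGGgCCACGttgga
Herpud1, ATF4 composite element, chr8:94386312-94386329, minus strand, 108 bases before: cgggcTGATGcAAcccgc

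In both groups replicate 1 stood apart from replicates 2 and 3 over many genes, as was known before these members were taken up, so the results below are given for silencing and for the replicate number.

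None of the 9 members was called between silenced and control arrays by limma, a linear model with a shared estimate of variance. A call needed an adjusted p under 0.05 after Benjamini-Hochberg adjustment over all tested genes. Member differences (silenced minus control) ran between -0.19 for Dnajc3 and 0.07 for Creld2, and their median was -0.02, against 0.01 for all tested genes. The silenced mean was below the control mean for 7 of the 9 members and above it for 2, where 47.3% of all tested genes lay below and 52.7% above. No tested gene of any kind was called in this comparison (0.00% of 11292). At an unadjusted p under 0.05 there were 0 of the 9 members and 4.80% of all tested genes. Without both arrays numbered 1, 0 members were called as well.

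The groups stood apart for 1 member, Dnajc3, while 11.8% of all tested genes had no overlap between silenced and control arrays, 4.87% with silenced below and 6.94% with silenced above. Dnajc3 encodes p58IPK, an ER co-chaperone of BiP that also inhibits eIF2 alpha kinases such as PERK. It read 9.06, 8.98 and 9.06 in silenced arrays 1 to 3, against 9.35, 9.12 and 9.21 in control arrays 1 to 3. Every silenced array lay below every control array, and silenced minus control was -0.29, -0.14 and -0.15 within numbers 1, 2 and 3. The difference was -0.19 ± 0.09 (SE), with a 95% confidence interval of -0.40 to 0.01 and a limma adjusted p of 0.871. In a limma fit blocked on the number its unadjusted p was 0.0415 and its adjusted p 0.471. In that fit 1168 of the 11292 tested genes had an unadjusted p under 0.05.

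Among the main ER chaperones, Hspa5 encodes BiP, which binds unfolded chains and holds the sensors inactive. Its levels were 11.52, 11.42 and 11.49 in silenced arrays, against 11.67, 11.39 and 11.51 in control arrays. The groups overlapped, and control replicate 1 was the highest of the 6. Hsp90b1, which encodes the ER paralogue of HSP90 (GRP94), had 11.43, 11.29 and 11.45 in silenced arrays and 11.47, 11.33 and 11.45 in control arrays. Replicate 2 was the lowest array of both groups. The differences were -0.05 for Hspa5 (95% interval -0.27 to 0.18) and -0.03 for Hsp90b1 (-0.23 to 0.17), with limma adjusted p of 0.953 and 0.968.

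Dnajb9 encodes ERdj4, a co-chaperone that promotes BiP binding to IRE1 and to degradation substrates. It read 8.55, 8.27 and 8.35 in silenced arrays, against 8.25, 8.64 and 8.59 in control arrays. Silenced was higher than control in the number 1 pair (0.29) and lower in numbers 2 and 3 (-0.37 and -0.23). Sdf2l1, a partner of the ERdj3 and BiP complex, read 7.18, 6.51 and 6.71 in silenced arrays and 7.00, 6.75 and 6.73 in control arrays. Replicate 1 was the highest array of each group. Creld2, an ER protein with disulfide isomerase activity, read 9.16, 8.64 and 8.93 in silenced arrays and 8.93, 8.68 and 8.91 in control arrays, with replicate 2 lowest in both groups.

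Herpud1 encodes a membrane protein that organizes the ER-associated degradation complex. It read 10.39, 11.36 and 11.42 in silenced arrays, against 10.63, 11.38 and 11.20 in control arrays. Replicate 1 lay far below replicates 2 and 3 in both groups, and the group means were almost equal, at 11.06 ± 0.58 and 11.07 ± 0.39 (SD, n = 3 each). The interval of the silencing difference for Herpud1 was wide, -0.73 to 0.70, with an SE of 0.31, against 0.10 in the fit blocked on the number (limma adjusted p = 0.996 and 0.966). Edem1, a lectin that passes misfolded glycoproteins to degradation, read 8.26, 8.56 and 8.32 in silenced arrays and 8.24, 8.60 and 8.36 in control arrays. Replicate 1 was the lowest and replicate 2 the highest array of each group. Xbp1 read 9.74, 9.82 and 9.78 in silenced arrays and 9.75, 9.81 and 9.67 in control arrays, with a difference of 0.04 (95% interval -0.14 to 0.22). The probe set gives a single value for Xbp1 and does not part the spliced from the unspliced mRNA.

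**Figure D1:**
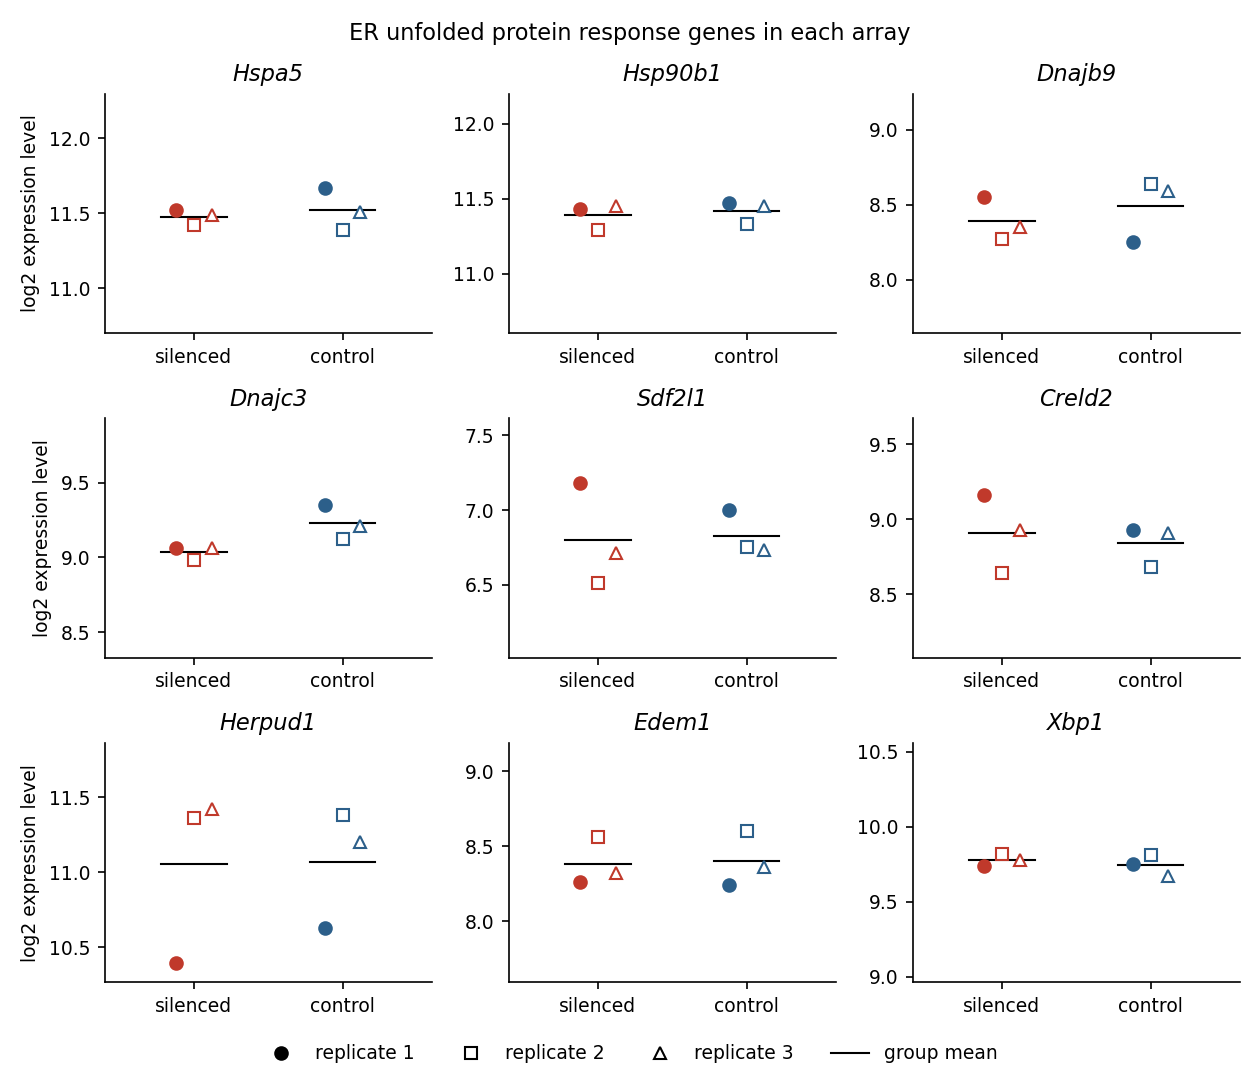
Log2 expression level (vertical axis, each panel spanning the same range of log2 units) of the 9 members in silenced and control arrays, with a marker shape for each replicate number and a line at the group mean. Replicate 1 stands lowest in both groups for Herpud1 (10.39 and 10.63) and highest in both for Sdf2l1 (7.18 and 7.00).

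The largest of the members' differences lay between replicate numbers. Herpud1 was lower in replicate 1 than in replicates 2 and 3, by 0.83 ± 0.11 (SE) on the log2 scale, or 1.78-fold (limma with the group as covariate, all 6 arrays, number 1 minus the mean of numbers 2 and 3, -0.83, 95% interval -1.08 to -0.58, adjusted p = 0.0133). It was lower by this measure in both groups, at -1.0 among silenced and -0.66 among control arrays. This fit counts the 2 arrays numbered 1 as independent. If same-numbered arrays belong together they are 1 unit, and p-values of the replicate 1 comparison, here and below, may be too small. Herpud1 was the 1 of 9 members called, where 4.91% of all tested genes were called, 2.04% higher and 2.87% lower. The size was uncommon: 77 of the 11292 tested genes had a lower difference than Herpud1. Without silenced replicate 1 Herpud1 was no longer called (-0.66, adjusted p = 0.115), and it stayed called when any other single array was left out.

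Sdf2l1 moved the other way but did not pass the threshold. Its replicate 1 arrays (7.18 silenced, 7.00 control) lay above all 4 others (6.51 to 6.75), a difference of 0.42 ± 0.10 (SE; 95% interval 0.17 to 0.66, limma adjusted p = 0.0690). The adjusted p was 0.0265 with a stricter filter on low values and 0.0379 with a trended variance prior, but 0.138 with no filter and 0.0904 with array weights. Without silenced replicate 1 the Sdf2l1 difference was 0.26 (adjusted p = 0.398). Members without overlap between replicate 1 and the other arrays numbered 4, namely Herpud1 and Edem1 below and Sdf2l1 and Hspa5 above, where 31.3% of all tested genes showed no overlap, 15.3% with replicate 1 below and 16.0% with it above. At an unadjusted p under 0.05 there were 2 of the 9, Herpud1 and Sdf2l1, and 23.5% of all tested genes. For Edem1 the difference was -0.21 ± 0.11 (SE; limma adjusted p = 0.295) and for Hspa5 0.14 ± 0.08 (SE; adjusted p = 0.348).

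Of the 9 members 7, all but Herpud1 and Sdf2l1, had intervals that spanned 0 in this comparison. In the fit blocked on the number, 4 of the 9 members and 2802 of the 11292 tested genes had an unadjusted p under 0.05. The additional members were Creld2 and Edem1, with limma adjusted p of 0.152 and 0.162. Creld2 differed by 0.25 ± 0.12 (SE), Dnajc3 by 0.11 ± 0.08, Hsp90b1 by 0.07 ± 0.08, Xbp1 by -0.02 ± 0.08 and Dnajb9 by -0.06 ± 0.14, with limma adjusted p between 0.265 and 0.907. The 4 genes that carry the ER stress response element printed above, Hspa5, Hsp90b1, Dnajc3 and Creld2, had higher means in replicate 1, none of them called. So did Sdf2l1, with no match to that element in its window. Of the other chaperone genes that carry it, Canx (0.11), Ero1b (0.10) and Pdia6 (0.13) were higher and Calr (-0.08) lower, also uncalled. Over the members the median was 0.07, against 0.01 for all tested genes, with 5 means higher and 4 lower, where 51.4% of all tested genes were higher and 48.6% lower. Replicates 2 and 3 also differed from each other for single members without a call. Number 2 minus number 3 was -0.27 for Creld2 (limma adjusted p = 0.615), 0.24 for Edem1 (adjusted p = 0.588) and 0.06 for Herpud1 (adjusted p = 0.956). No tested gene was called between numbers 2 and 3 (0.00%), and 7.78% had an unadjusted p under 0.05.

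**Figure D2:**
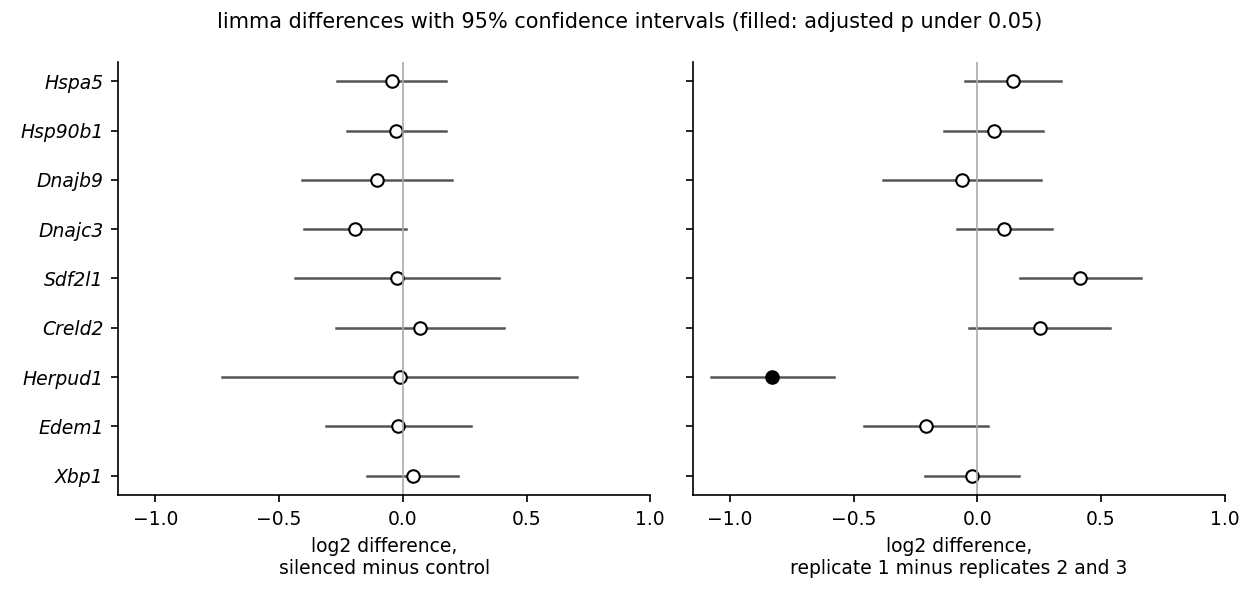
Log2 differences of the 9 members (points) with 95% confidence intervals from limma, silenced minus control in the left panel and replicate 1 minus replicates 2 and 3 in the right panel. Herpud1 at -0.83 is the only filled point, with an adjusted p under 0.05, and its interval in the left panel, from a fit without the replicate number, runs from -0.73 to 0.70.

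Whether silencing acted differently in replicate 1 was tested as an interaction, the silencing difference in number 1 minus its mean in numbers 2 and 3. No member was called, nor was any tested gene (0.00%), and 7.04% of tested genes and 1 of the 9 members, Dnajb9, had an unadjusted p under 0.05. For Dnajb9 the interaction was 0.60 ± 0.16 (SE; 95% interval 0.22 to 0.98, limma unadjusted p = 0.00856, adjusted p = 0.630). For Herpud1 it was -0.34 ± 0.18 (SE; adjusted p = 0.740) and for Sdf2l1 0.31 ± 0.18 (SE; adjusted p = 0.780). For Hsp90b1, Xbp1 and Edem1 it lay between -0.07 and 0.05.

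**Figure D3:**
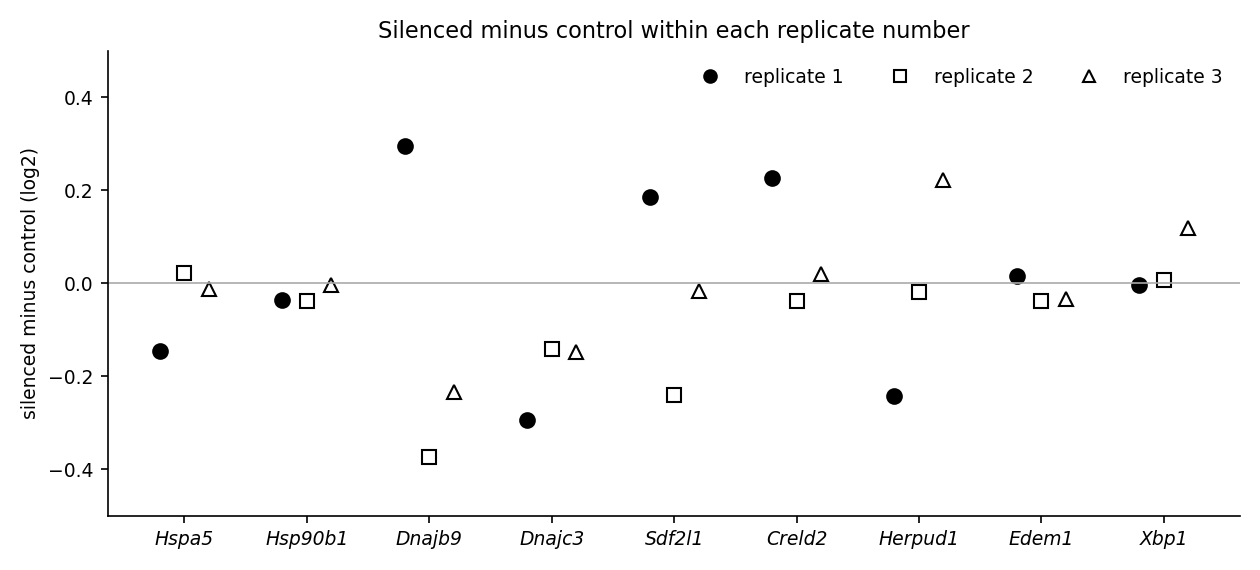
Silenced minus control log2 difference (vertical axis) of each member within replicate numbers 1, 2 and 3 (marker shapes). Dnajb9 is at 0.29 in number 1 and at -0.37 and -0.23 in numbers 2 and 3, while Dnajc3 is below 0 in all 3.

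The 9 members did not share a profile over the 6 arrays. Herpud1 and Sdf2l1 ran in opposite directions (Pearson r = -0.92 over 6 arrays, a description of arrays that share replicate numbers), while Hspa5 ran with Hsp90b1 (0.79) and Dnajc3 (0.77), and Creld2 with Sdf2l1 (0.83). Edem1 ran against Hsp90b1 (-0.92) and Creld2 (-0.90). The mean of the centred members stayed between -0.06 (silenced replicate 2) and 0.04 (control replicate 2). The tested genes with the most similar profile to that mean were 2610524H06Rik, Wdr91, Fan1, Gbp3 and Tmem230 (Pearson r between 0.975 and 0.988 over 6 arrays). These 5 were picked for the highest r among all tested genes outside the members, so their r is high by selection. All 5 read lowest in silenced replicate 2.

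Among the sensors and activating proteases, 5 of 6 listed genes were tested and 2 were called in replicate 1 against replicates 2 and 3, in opposite directions. Eif2ak3 (PERK) read 7.26 silenced and 7.24 control in number 1, against 6.68 to 6.86 in numbers 2 and 3, and was higher by 0.45 ± 0.08 (SE; limma adjusted p = 0.0289). Ern1 (IRE1) read 7.15 and 7.08 in number 1, against 7.48 to 7.67 in numbers 2 and 3, and was lower, at -0.45 ± 0.07 (SE; adjusted p = 0.0236). For neither gene did the arrays of number 1 overlap with the other 4. Both calls were lost when any single array was left out, with adjusted p between 0.0550 and 0.157 for Eif2ak3 and between 0.05001 and 0.169 for Ern1, and also without the filter on low values. In the silencing comparison 0 of the 5 were called, all 5 had a higher mean in silenced arrays, and the smallest p fell to Atf6b, an ATF6 paralogue (0.14 ± 0.11, SE), and Atf6 (0.11 ± 0.11, SE), both with adjusted p over 0.87.

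Of 19 other tested ER chaperone and folding enzyme genes, 1 was called in replicate 1, Ero1a, the oxidase that renews the disulfide bonds of the isomerases. Ero1a read 8.71 silenced and 8.92 control in number 1, against 9.81 to 10.04 in numbers 2 and 3, and was lower by 1.07 ± 0.08 on the log2 scale (number 1 minus numbers 2 and 3, -1.07, limma adjusted p = 0.0032). Without silenced replicate 1, which leaves a single array of number 1, its difference was -1.04 and its adjusted p 0.0534. The list's median was 0.06, with 10 genes higher and 9 lower. Txndc5, whose window matched the ATF4 composite element, differed by -0.06 ± 0.07 (SE; limma adjusted p = 0.663). None was called for silencing, and the 2 with the smallest p there were the glycoprotein folding sensor Uggt1 (0.15 ± 0.08, SE) and the BiP exchange factor Hyou1 (0.16 ± 0.09, SE).

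Of 14 other tested genes of ER-associated degradation, the membrane channel component Derl1 was the 1 called in replicate 1, at -0.35 ± 0.07 (SE; limma adjusted p = 0.0446), and it was not called when any single array was left out (adjusted p 0.0806 to 0.196) or when the number entered as a block (0.0511). The ligase Syvn1 and the degradation component Selenos had the smallest p for silencing, at 0.24 ± 0.10 and -0.32 ± 0.14 (SE; adjusted p = 0.871 for both). Genes of ER translocation and signal peptide removal, 18 tested, had 0 calls in either comparison, with Sec62 at -0.25 ± 0.08 (SE; -0.13 as the mean over its probe sets) and Srprb at 0.24 ± 0.09 (SE) in replicate 1 and Sec11c at -0.17 ± 0.07 and Ssr2 at -0.13 ± 0.08 (SE) for silencing.

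ATF4 and its targets, genes of amino acid uptake, amino acid synthesis and stress signalling, were mostly lower in replicate 1: 23 of 27 tested genes were called lower and 0 higher, where 2.87% of all tested genes were called lower. The list was drawn up knowing that it differed this way, so its count is a description. The median was -0.78, and Herpud1, at -0.83, had 12 of the 27 below it. The cystine transporter gene Slc7a11 read 4.76 silenced and 4.92 control in number 1, against 6.97 to 7.28 in numbers 2 and 3 (-2.26 ± 0.08, SE; limma adjusted p = 0.000150). The hormone gene Fgf21 read 7.94 and 8.28 in number 1, against 9.62 to 9.83 (-1.58 ± 0.10, SE; adjusted p = 0.00177). The count of called genes was 5 without silenced replicate 1, 8 without control replicate 1 and 13 without control replicate 2. For silencing 0 of the 27 were called, with Ddit4 at -0.29 ± 0.19 and Nars at -0.13 ± 0.16 (SE).

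**Figure D4:**
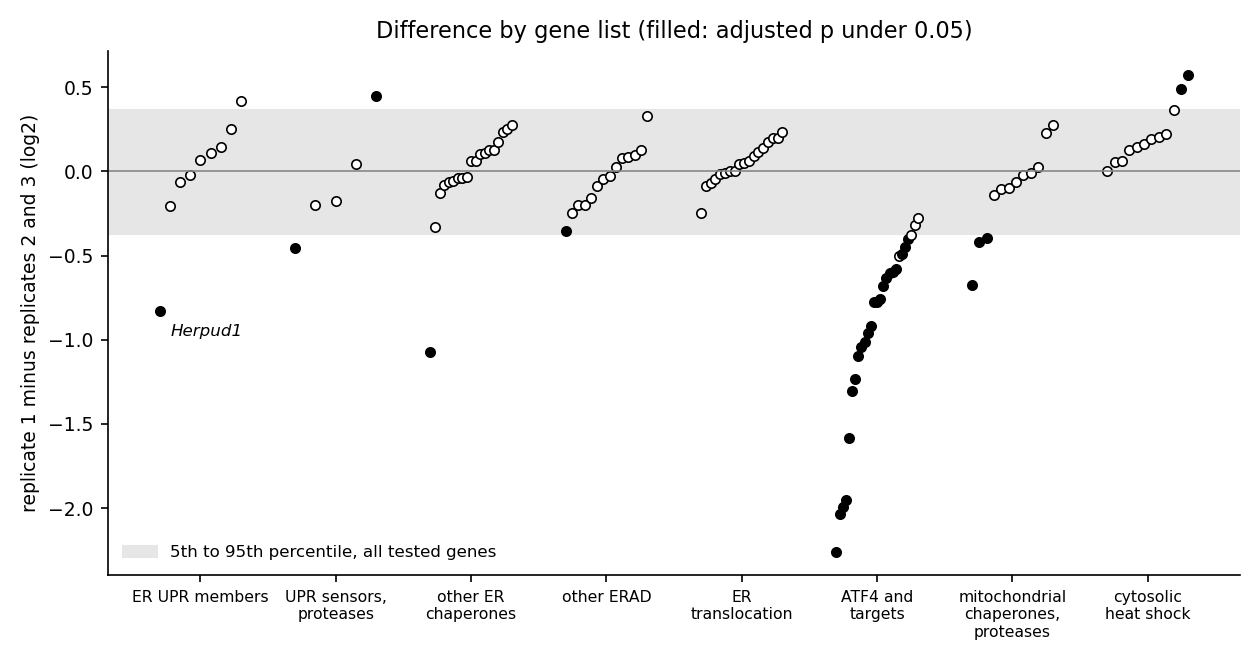
Replicate 1 minus replicates 2 and 3 (log2, vertical axis) for each tested gene of 8 lists, filled where the limma adjusted p was under 0.05, with a grey band from the 5th to the 95th percentile of all tested genes (-0.37 to 0.36). Herpud1 lies among the ATF4 list's values and below the other 8 members.

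**Figure D5:**
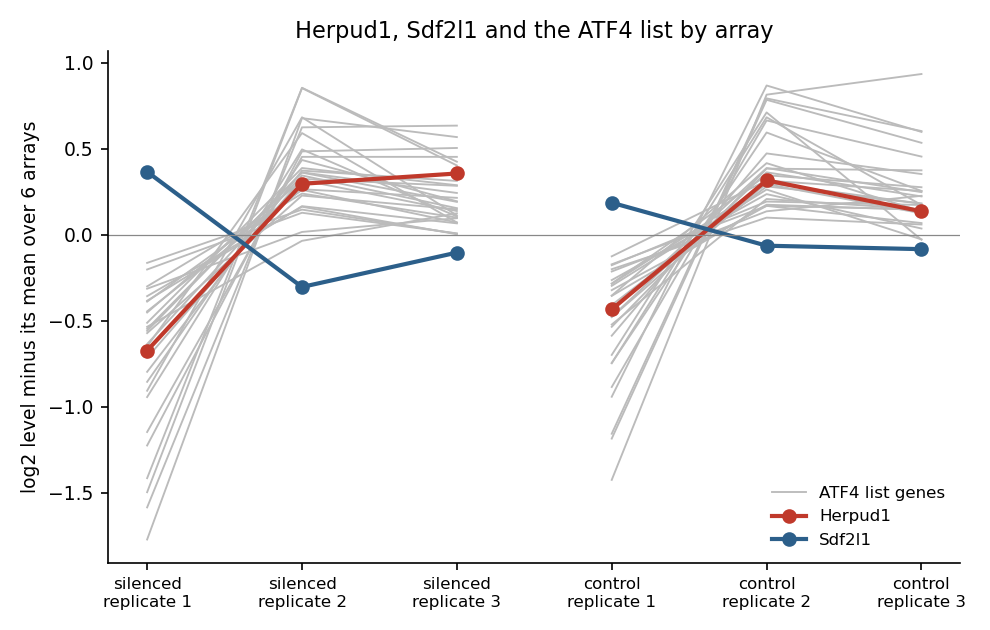
Log2 level minus the mean over 6 arrays (vertical axis) in each array for Herpud1, Sdf2l1 and the 27 tested genes of the ATF4 list (grey), with lines that only join the arrays of a gene within a group. Herpud1 and the ATF4 genes are low in replicate 1 of both groups, and Sdf2l1 is high there.

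Chaperone genes of other compartments were compared in the same way. Of 12 tested cytosolic heat shock genes all had a higher mean and 2 were called, the co-chaperones Hsph1 (0.58 ± 0.08, SE; limma adjusted p = 0.0187) and Dnajb1 (0.49 ± 0.08, SE; adjusted p = 0.0255). The call on Hsph1 was lost without silenced replicate 1 (adjusted p = 0.133), control replicate 1 (0.113) or control replicate 2 (0.0544), and that on Dnajb1 without any single array (0.0519 to 0.186). Of 12 mitochondrial chaperone and protease genes 3 were called lower, among them Lonp1, a matrix protease (-0.67 ± 0.08, SE; adjusted p = 0.0111), and the matrix co-chaperone Dnaja3 (-0.42 ± 0.08, SE; adjusted p = 0.0361). Lonp1 was not called without silenced replicate 1 (0.110) or control replicate 1 (0.0836), nor Dnaja3 without any single array (0.0597 to 0.174). None of these lists had a call for silencing, where Chordc1 (-0.31 ± 0.10, SE), Hspb1 (0.17 ± 0.12, SE), Grpel1 (-0.19 ± 0.08, SE) and Spg7 (0.13 ± 0.09, SE) had the smallest p.

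Myotube markers, 16 of 16, lay above the filter level, and 0 of 16 were called in either comparison. Their list mean was between 10.42 and 10.62 in silenced and between 10.29 and 10.38 in control arrays. For silencing, 14 of the 16 had a higher mean in silenced arrays, 6 had an unadjusted p under 0.05 and 8 had no overlap between the groups, where 4.80% and 11.8% of all tested genes did so. Myh1 and Myh3 had the smallest p for silencing (0.36 ± 0.09 and 0.25 ± 0.08, SE; limma adjusted p = 0.871 for both), and Myog (-0.29 ± 0.08, SE) and Tnnc2 (-0.11 ± 0.08, SE) in replicate 1. Adipocyte markers, 6 of 6, lay under the filter level, with list means of 2.90 to 3.03 in silenced and 2.91 to 2.95 in control arrays. Fibroblast markers, which C2C12 cells also express, had list means of 9.0 (silenced) and 9.07 (control) in replicate 1, against 9.26 to 9.50 in replicates 2 and 3, with all 7 means lower there and Dcn called (-0.58 ± 0.09, SE; adjusted p = 0.022). Of 6 markers of undifferentiated myoblasts Ccnd1, a cyclin gene, was called higher (0.67 ± 0.11, SE; adjusted p = 0.022), while 3 of the 6 had higher and 3 lower means, with a median of 0.02. Mki67 came next (0.49 ± 0.11, SE; limma adjusted p = 0.0578) and was not called, and Myf5 was the lowest (-0.22 ± 0.09, SE). The call on Dcn was lost without silenced replicate 1 or 3 or any control array (adjusted p 0.0515 to 0.137), and that on Ccnd1 without silenced replicate 1 (0.168), control replicate 1 (0.0898) or control replicate 2 (0.0648). The part of these markers in the Herpud1 difference was not tested. For silencing, Postn (-0.24), Lum (-0.60), Id3 (-0.25), Pax7 (0.22), Sox9 (0.19) and Bglap (-0.31) had the smallest p of the other marker lists, with adjusted p of at least 0.871. Sox9 (0.26 ± 0.09, SE) and Bglap (0.43 ± 0.18, SE) were not called in replicate 1.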

How the data were processed

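RNA of 6 samples, 100 ng each with an RNA integrity number above 8.0, was hybridised to Affymetrix whole-transcript arrays, per the labels. The deposited values are log2 levels for 35556 probe sets made by the authors with RMA (background correction, quantile normalization, probe summary), per the submitters' processing notes; the version is not given in the sources used here. This summary compresses differences of dim genes. Arrays' medians lay between 4.21 and 4.27, and having 3 arrays per group limits the precision.

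Of the probe sets, 21218 name 1 gene in the platform annotation, 1881 several, and 12457 are not listed. The brightest single-gene row was kept per gene, and genes above the 40th percentile (level 3.87) were tested with limma 3.58.1 in R 4.3.3, 2-sided, after a check on simulated data. The simulated arrays were independent and the planted changes larger than any member's silencing difference. That check therefore does not show the power or error rate of the tests reported here. Comparisons were silenced against control, number 1 against numbers 2 and 3 with group as covariate, their interaction, and number 2 against number 3. Members, lists and the split by replicate number were chosen with earlier results of these data known. Named genes are the members, from each list up to 2 called genes per direction or otherwise 2 by smallest p, and the 5 genes most like the members' mean. A few others are named for a promoter match or, as Mki67 and Myf5, to show the spread of a list. Same-numbered arrays deviated together from their group means (r = 0.55, 0.35 and 0.42). A shift of number 1 alone would also raise the r of numbers 2 and 3. Each of the 6 arrays correlated best with the same-numbered array of the other group. This was taken as pairing by number although no label states it. Fits blocked on the number used this pairing, while the main silencing test did not. Alternatives changed the filter, row choice, normalization, variance prior, array weights, block or arrays used. Promoters and the microRNA are from RefSeq GRCm38.p6.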

Additional observations from a re-analysis of the deposited data

How the results depend on the processing

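In each alternative run, leaving out each array included, 0 members were called for silencing and between numbers 2 and 3. The same held for the interaction, which has no value without either array numbered 1. The block was not added to the interaction, and number 2 against number 3 is fitted with the number as a term already. The replicate block also left 0 members called for silencing. At an unadjusted p under 0.05 that fit had 1 of the 9 members and 1168 of the 11292 tested genes. The block kept Herpud1 as the 1 member called in replicate 1 (limma adjusted p = 0.0134). Among the named genes the block changed the call of Derl1 alone. Leaving out the filter on low values also ended the calls of Ern1, Eif2ak3, Derl1, Dnaja3 and Dnajb1, array weights those of Derl1 and Dnaja3, while the trended prior added Sec62 (adjusted p = 0.0345) and Myog (0.0210). The mean over a gene's probe sets gave Sec62 an adjusted p of 0.486. In replicate 1, 2 members were called with the filter at the 60th percentile or the trended prior, and 0 to 1 when 1 array was left out. Over all tested genes the count for replicate 1 was 554, against 230 with no filter, 854 with the stricter filter, 1050 with the trend, 369 with array weights and 20 (without silenced replicate 1) to 331 (without silenced replicate 2) with 1 array fewer. Between numbers 2 and 3 it was 0, against 5 with the stricter filter, 18 with the trend and 98 without both arrays numbered 1. Silencing differences that turned sign were uncalled. Without both arrays numbered 1 these were 0.0044 for Hspa5, 0.10 for Herpud1 and -0.0091 for Creld2, and with array weights 0.067 for Herpud1. With 1 array left out, silencing differences ranged from -0.11 to 0.027 for Hspa5, -0.070 to 0.023 for Hsp90b1, -0.22 to 0.12 for Sdf2l1, -0.23 to 0.32 for Herpud1, -0.054 to 0.20 for Creld2, -0.11 to 0.082 for Edem1 and -0.25 to 0.019 for Nars. Those of replicate 1 ranged from -0.36 to 0.24 for Dnajb9 and -0.057 to 0.012 for Xbp1. Of 49 named differences that kept their sign with 1 array left out, 22 moved by over 1.5 times, all of them uncalled. Among these were, for silencing, Ddit4 (-0.43 to -0.10), Lum (-0.98 to -0.22), Atf6 (0.017 to 0.21), Atf6b (0.049 to 0.19) and Dnajb9 (-0.23 to -0.032). The causes were not tested. The interaction and the replicate 1 contrast rest on 2 arrays numbered 1. The replicate 1 contrast treats these as independent, although arrays were taken as paired by number.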
